A study of Danio rerio with 16 samples.

Results

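Wild-type (WT) zebrafish hearts collected 3 days after amputation of part of the ventricle (3 dpa) were compared with WT uninjured hearts (UI), gene by gene and over all nuclei rather than in cardiomyocytes alone. A nucleus was kept when its barcode held at least 500 unique molecular identifiers (UMIs, each standing for 1 captured RNA molecule) and at most 5% of them on mitochondrial genes. This left 18572 nuclei, 10394 of them from the 3 dpa library and 8178 from the UI library, out of 37644 nuclei that passed the same filter in the whole series. UMIs were summed over all kept nuclei of a library and expressed as CPM, counts scaled to a common total for each library. Each difference is given as the log2 ratio of CPM + 10, 3 dpa over UI, so values above 0 were higher in the 3 dpa library.

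The adult zebrafish ventricle regrows after amputation, and new muscle arises mainly from cardiomyocytes that partly lose their differentiated state and divide. The wound is first filled by clot and inflammatory cells, and the epicardium and fibroblasts lay down a transient matrix rich in fibronectin and collagens. Blood cells, endocardium and nerves also take part in the early response.

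The series profiled nuclear RNA from frozen adult hearts of WT animals and of animals homozygous for the pt38a allele, a *cited4a* mutant line, each uninjured and at 3 dpa. In the injured groups about 20% of the ventricle had been amputated, and the UI hearts had no injury of any kind named in their labels. Nuclei were obtained with a 10x nuclei isolation kit and sequenced with the 10x Chromium 3′ v3.1 chemistry. The labels list 4 samples in each of the 4 groups, but all counts of a group were pooled in 1 matrix with no record of the sample, so each group is 1 sample here. Whether the 4 samples are hearts, libraries or lanes is not stated, nor are the animals' age, sex, background strain or number. Which group a matrix belongs to was read from its name, since its barcodes carry no other label. No drug or transgene is named for either WT group, and a sham operation is not among the groups. With 1 sample a group no test is possible, so no p-value or standard error is given, and every interval is an exact 95% interval that covers counting error only. Many genes below were named for a high or low ratio, so intervals that do not overlap follow largely from that choice. The share of all tested genes with such intervals is not given.

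The 3 dpa library was the shallower of the pair per nucleus. Its kept nuclei had a median of 1052 UMIs and a total of 18529543, against a median of 1725 and a total of 16242931 in the UI library. Mitochondrial genes took 1.42% of the kept UMIs at 3 dpa and 0.681% in UI, and the 5% limit left out 1773 barcodes at 3 dpa against 131 in UI. The 2 WT libraries shared 136 barcodes, 119 of them among the kept nuclei of both. Genes of the cardiomyocyte sarcomere were among the most abundant in both libraries, with *ttn.2*, one of the titin genes, at 30470 CPM in UI and 23800 CPM at 3 dpa, in keeping with the heart label. *cited4a*, a transcriptional co-regulator and the gene mutated in the other genotype, was detected in both WT libraries at 153 CPM in UI and 53.6 CPM at 3 dpa. The most abundant feature at 3 dpa, *zgc:158463*, was picked out after its values were seen. It stood at 17360 CPM in UI and 44710 CPM at 3 dpa.

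More genes had a higher CPM at 3 dpa than a lower one, and collagens and fibronectin had the 6 highest ratios among genes with a symbol. Among 14602 genes with at least 100 UMIs over both libraries, 555 (3.80%) had a log2 ratio at or above 1 and 121 (0.829%) had one at or below −1. Ratios ran from −2.54 to 4.83, with 45 genes at least 4-fold higher on the CPM + 10 scale and 3 at least 4-fold lower. The median over all tested genes was 0.20, and 75.5% of them lay above 0, so a list is read below against that median as well as against 0. The counts of a list past 2-fold are to be read against the 3.80% and 0.829% of all tested genes. A gene could reach the minimum of 100 UMIs through 1 library alone, so in lists with many scarce genes the counts and medians lean towards genes high in that library. With 10 CPM added to each value, a gene under 10 CPM in UI cannot reach −1, and one under 10 CPM at 3 dpa cannot reach 1. The balance of the 2 directions depended on the scaling. Of the genes past 2-fold, 82.1% were higher under CPM, 37.8% when the median ratio was set to 0 and 22.1% under TMM scaling. Against CPM the median over all genes dropped by 0.20 and 0.27 under these scalings, and abundant genes moved by more than scarce ones, since the 10 CPM added to each value counts for less in them. Without the shared barcodes the counts were 554 higher and 118 lower. At the higher threshold *boc* lay just inside at 1.0014 and *cacna1ia* just outside at 0.99989, and at the lower threshold *epoa* lay just inside at −1.0022 and *pla1a* just outside at −0.99516.

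**Figure D1:**
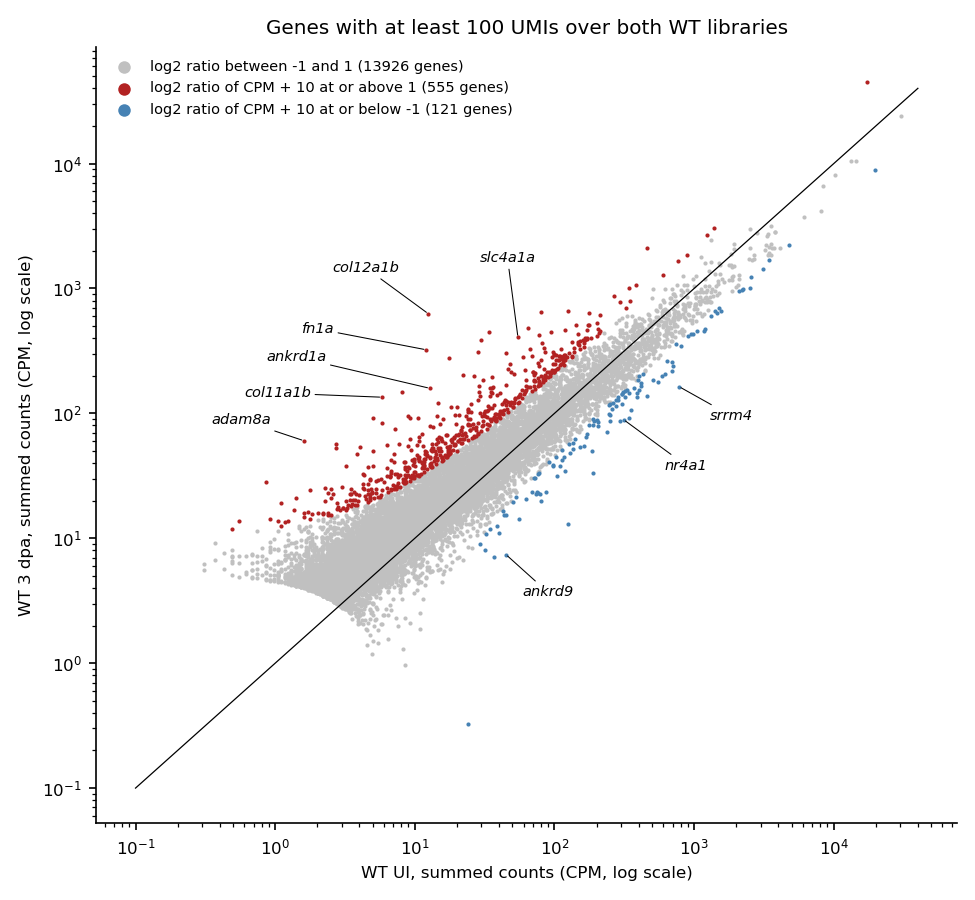
Summed CPM of each gene with at least 100 UMIs in WT UI (horizontal, log scale) and WT 3 dpa (vertical, log scale), 1 point a gene, with the line of equal CPM. The 555 genes at or above a log2 ratio of 1 lie above the line and the 121 at or below −1 lie under it, and the labelled *col12a1b* is the highest of all at 4.83.

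Genes of the extracellular matrix led the list of higher genes, and 9 of the 15 highest ratios belonged to collagens and fibronectin. *col12a1b*, a fibril-associated collagen, stood at 12.4 CPM (10.8 to 14.3) in UI and 629 CPM (618 to 641) at 3 dpa, a 50.6-fold difference (44.0 to 58.5). *fn1a*, which encodes fibronectin, stood at 12.01 CPM (10.4 to 13.8) in UI and 323 CPM (315 to 331) at 3 dpa, 26.9-fold higher (23.3 to 31.2). For both genes UI was the low library. *col11a1b*, a fibrillar collagen that sets fibril width, was 23.3-fold higher (18.9 to 28.9), at 5.79 CPM in UI and 135 CPM at 3 dpa. The chains of type I collagen, the main fibril of scar and tendon, differed less in fold than *col12a1b*, *fn1a* and *col11a1b* and had higher levels in UI. *col1a1a* stood at 17.6 CPM in UI and 280 CPM at 3 dpa, *col1a1b* at 29.9 and 388 CPM, and *col1a2* at 28.3 and 311 CPM. These made folds of 15.9, 12.97 and 11.01. *col5a1*, which nucleates type I fibrils, started from the highest UI level of the 9, at 79.7 CPM, and stood at 646 CPM at 3 dpa, 8.11-fold higher (7.65 to 8.59). *col12a1a* and *col11a1a* were 13.3-fold and 14.4-fold higher. Because UMIs are summed over all nuclei, more nuclei of a type and more RNA per nucleus cannot be told apart in these values.

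Over the whole list of fibrillar collagen and matrix genes, 29 of 71 tested members were at or above 1 and 1 was at or below −1, with a median of 0.93 against 0.20 over all genes. The median stayed above 0 under all 13 alternative settings, from 0.49 to 1.28. Summed over the list, matrix genes held 3916 CPM in UI and 9217 CPM at 3 dpa, a 2.35-fold difference (2.33 to 2.38). The exception at the lower end was *emilin1a*, an elastic-fibre glycoprotein, at 76.8 CPM in UI and 32.5 CPM at 3 dpa. Basement-membrane members with many UMIs were close to level between the libraries. *lamb2*, a laminin beta chain, had a log2 ratio of −0.19, and *agrn*, the heparan sulfate proteoglycan agrin, one of 0.26, which turned negative under 3 alternatives.

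Enzymes that cross-link, cleave or protect the matrix were also mostly higher at 3 dpa, with 15 of 55 tested members at or above 1, 2 at or below −1 and a median of 0.62. *adam8a*, a membrane metalloprotease known from leukocytes, stood at 1.60 CPM in UI and 60.4 CPM at 3 dpa, 37.8-fold higher (25.6 to 58.1). *loxl2a*, a lysyl oxidase that cross-links collagen, stood at 14.3 and 95.6 CPM, and *serpinh1b*, the collagen chaperone of the endoplasmic reticulum, at 13.5 and 53 CPM. In each of these 3 genes UI was the low library. The secreted proteases *adamts15a* and *adamts9* went the other way. *adamts15a* stood at 555 CPM in UI and 177 CPM at 3 dpa, and *adamts9* at 128 and 47.9 CPM. *adamts9* was the less stable of the pair, at −0.95 when only nuclei with at least 1000 UMIs were used.

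**Figure D2:**
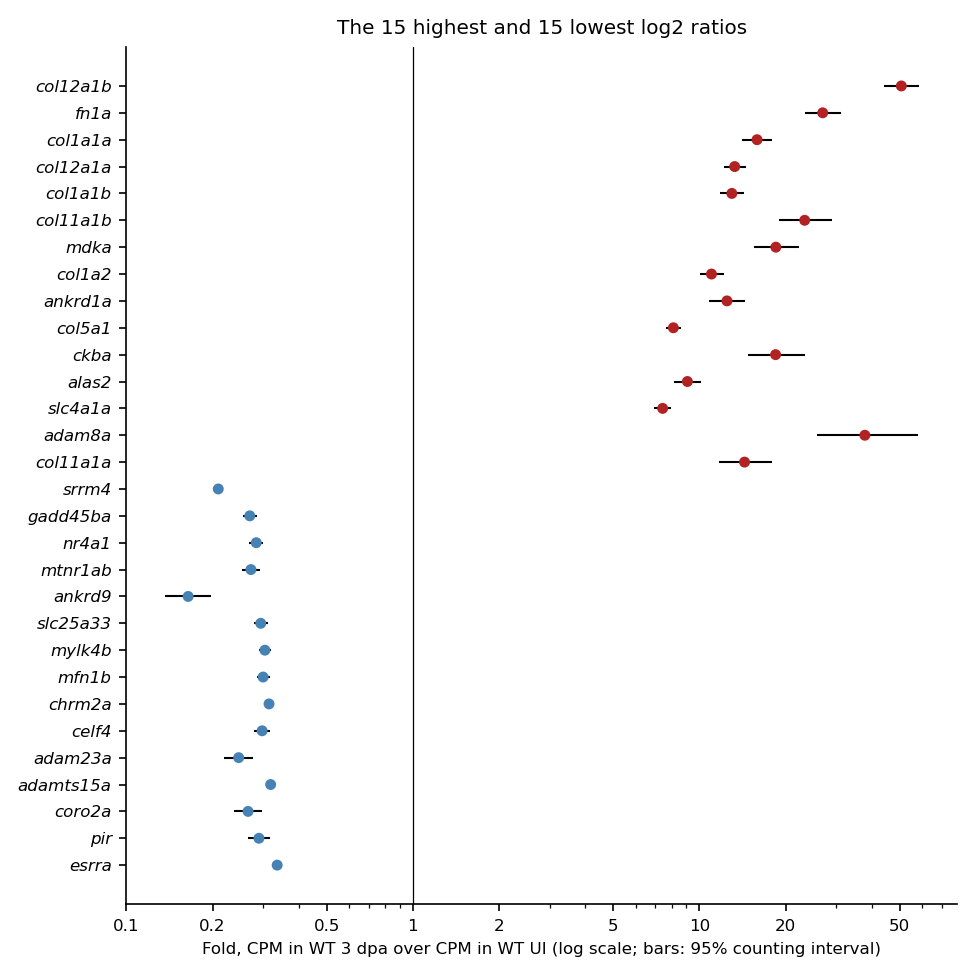
Fold of CPM, WT 3 dpa over WT UI (horizontal, log scale), for the 15 genes with the highest and the 15 with the lowest log2 ratio of CPM + 10, with points for the fold and bars for the exact 95% interval of counting. The folds run from 50.6 for *col12a1b* at the top to *ankrd9*, 6.09-fold lower, among the lowest genes. All 30 intervals stay clear of 1, which the choice of genes by their ratio made near certain.

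The matrix UMIs of the 3 dpa library were spread over clusters of nuclei, with the largest share in cluster 7. Over the fibrillar collagen and matrix list, 36.9% lay in cluster 7, 16.5% in cluster 3 and 10.2% in cluster 1. Over the list of matrix enzymes, 25.5% lay in cluster 7 and 21.2% in cluster 3. The WT nuclei of both libraries were clustered together into 18 clusters, and cluster 7 was called fibroblast or epicardial-like because 19 of 20 fixed markers were raised in it. At 3 dpa it held 5.52% of nuclei and 9.46% of all UMIs, but 76.0% of the UMIs of *col12a1b*, 69.0% of those of *col12a1a*, 67.9% of those of *col11a1b* and 63.2% of those of *fn1a*. Type I collagen was more dispersed, with 44.6% of *col1a1a*, 48.4% of *col1a1b* and 48.9% of *col1a2* UMIs in cluster 7. *serpinh1b* had 64.1% and *loxl2a* 47.3% of its UMIs there. In the UI library, where the same genes were scarce, *col12a1b* had 36.6% of its 202 UMIs in cluster 0, which held 44.0% of all UI UMIs. These shares describe where the UMIs lay within 1 library and are not a test, since the clusters were built from the same genes.

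Epicardial genes outside the collagen family were mixed but more often higher. Of 35 tested members of an epicardium list, 9 were at or above 1, 0 at or below −1, and the median was 0.52 (0.22 to 0.78 over the alternatives). *mdka*, the heparin-binding growth factor midkine, stood at 8.07 CPM in UI and 149 CPM at 3 dpa, 18.5-fold higher (15.5 to 22.2), with 44.4% of its 3 dpa UMIs in cluster 7. *bnc2*, a zinc-finger protein of mesenchymal cells, stood at 48.5 and 215 CPM, and 59.8% of its UMIs at 3 dpa were in cluster 7. *krt4*, a keratin of surface epithelia, stood at 5.05 and 50.2 CPM, and only 30.2% of its UMIs were there. The lowest member on this list was still above −1, at −0.64.

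**Figure D3:**
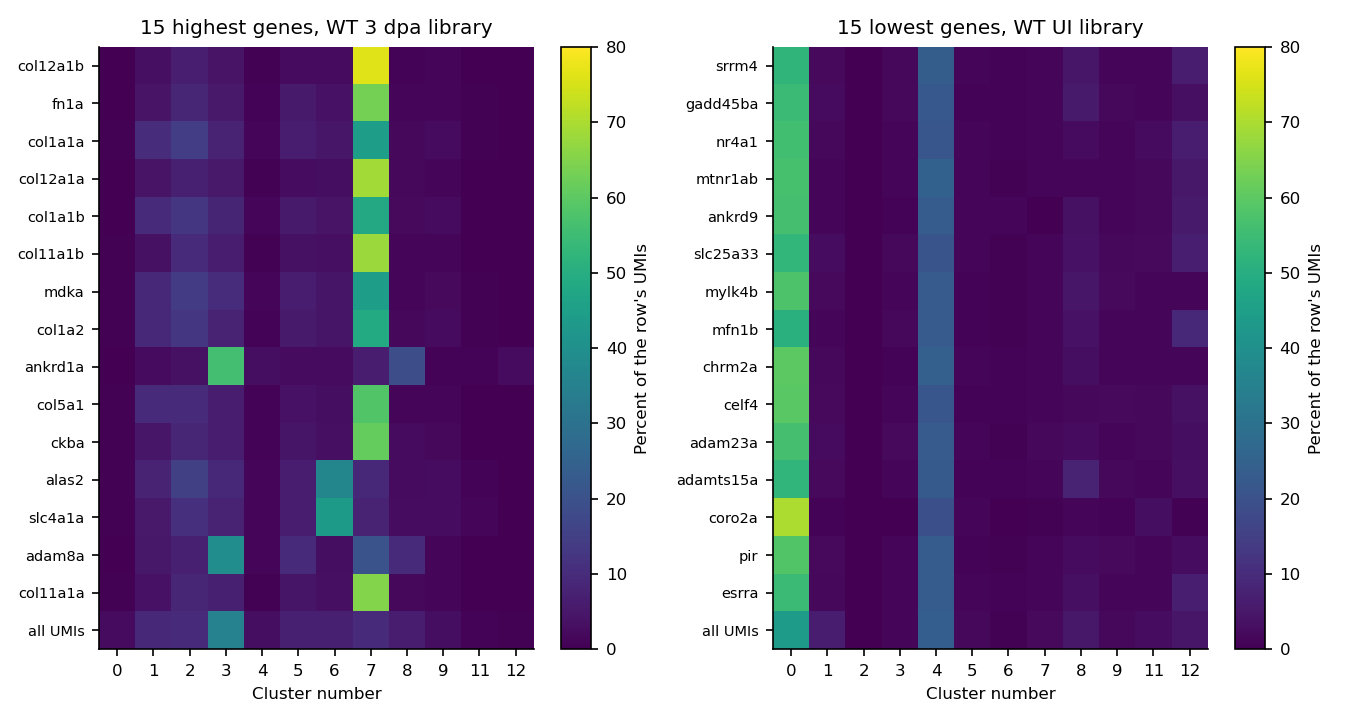
Percent of each gene's UMIs (colour, 0 to 80%) that lay in each of 12 clusters (horizontal, cluster numbers), for the 15 highest genes within the WT 3 dpa library (left) and the 15 lowest genes within the WT UI library (right), with all UMIs of the library as the bottom line. Collagen and fibronectin lines are brightest in cluster 7, *alas2* and *slc4a1a* in cluster 6, *ankrd1a* in cluster 3, and the lowest genes in clusters 0 and 4.

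Marker lists of the heart's cell types showed which summed signals differed. Fibroblast or epicardial markers summed to 751 CPM in UI and 3418 CPM at 3 dpa, 4.55-fold higher (4.47 to 4.64), with 11 of 18 tested markers at or above 1. These markers include *col1a1a*, *col1a1b*, *col1a2*, *col5a1* and *col12a1a*, so the sum in part repeats the collagen values above. *col5a1* alone gave 1295 of the 12191 UMIs of the list in UI and 11976 of 63330 at 3 dpa. Erythrocyte markers summed to 914 and 3368 CPM, 3.68-fold higher (3.62 to 3.75), with 16 of 20 at or above 1. Thrombocyte markers summed to 128 and 409 CPM, with 4 of 11 at or above 1. Cardiomyocyte markers went the other way, from 110000 CPM in UI to 76030 CPM at 3 dpa, which was 11% and 7.60% of all UMIs. Endothelial or endocardial markers were nearly level at 3307 and 3254 CPM. Their median of 0.00 changed sign under 7 of the 13 alternatives. Mural or smooth muscle markers summed to 1788 and 1556 CPM, although the median over single markers was 0.38, of the opposite sign to the sum. Of the 29047 UI UMIs of this list, *cspg4* gave 13437 and *abcc9* 11358. In UI 44.3% of the list's UMIs lay in unnamed cluster 0 and 22.3% in unnamed cluster 4, against 44.0% and 24.0% of all UMIs. At 3 dpa 41.7% lay in unnamed cluster 3, so the sum is not a measure of mural nuclei alone.

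**Figure D4:**
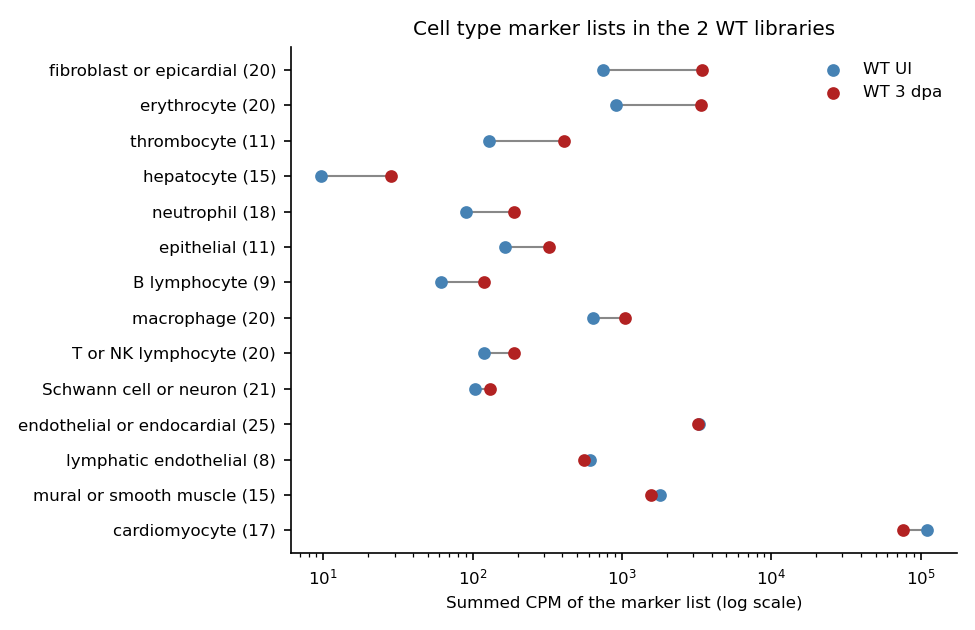
Summed CPM (horizontal, log scale) of each cell type's marker list in WT UI and WT 3 dpa, with the number of markers in the table in parentheses. Fibroblast or epicardial markers are farthest apart, at 751 and 3418 CPM, endothelial or endocardial markers coincide at 3307 and 3254 CPM, and cardiomyocyte markers (110000 and 76030 CPM), mural and lymphatic markers have lower sums at 3 dpa.

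Red-cell genes gave 2 of the 15 highest ratios. *alas2*, the first enzyme of haem synthesis in red cells, stood at 22.2 CPM (19.9 to 24.6) in UI and 201 CPM (195 to 208) at 3 dpa, 9.07-fold higher (8.14 to 10.1). *slc4a1a*, the band 3 anion exchanger of the red-cell membrane, stood at 54.7 and 407 CPM, 7.44-fold higher (6.94 to 7.98). The haemoglobin genes *hbaa1* and *hbba1*, which may share reads with close copies beside them, were 5.46-fold and 5.21-fold higher. UI was the low library for each of these genes. Fish erythrocytes keep their nuclei, and at 3 dpa cluster 6, called erythrocyte-like with all 20 markers raised, held 43.7% of *slc4a1a* and 34.4% of *hbba1* UMIs. In UI 24.3% of *hbba1* UMIs were in cluster 4, which held 24.0% of all UMIs in that library. How far free RNA from red cells adds to the values of other clusters was not tested. *sptb*, a spectrin that other cells also use, was the 1 red-cell marker below 0, at −0.07, and turned positive under 1 alternative.

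Thrombocyte genes and proteins of the clotting cascade were mostly higher. *itga2b*, the platelet integrin, stood at 24.8 CPM in UI and 81.0 CPM at 3 dpa, and 68.9% of its 3 dpa UMIs lay in cluster 9, which carried 9 of 11 raised thrombocyte markers. *thbs1b*, a thrombospondin released by platelets, stood at 24.1 and 107 CPM, 4.46-fold higher (3.997 to 4.98). In the coagulation and complement list 6 of 35 tested members were at or above 1, 1 was at or below −1 and the median was 0.40. *c6*, a component of the complement attack complex, stood at 79.5 and 267 CPM. The 2 tissue factor genes, which start clotting, differed in direction. *f3a* stood at 13.2 CPM in UI and 52.6 CPM at 3 dpa, and *f3b* at 433 and 206 CPM. When every nucleus was given equal weight *f3a* came to 0.83, below the 2-fold line but in the same direction.

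Leukocyte marker lists had higher sums at 3 dpa. Macrophage markers summed to 638 CPM in UI and 1043 CPM at 3 dpa, with 3 of 18 at or above 1. *mrc1b*, the mannose receptor, stood at 35.8 CPM (33.0 to 38.9) in UI and 146 CPM (141 to 152) at 3 dpa, 4.09-fold higher (3.73 to 4.48), and 52.5% of its 3 dpa UMIs lay in macrophage-like cluster 5. *lgmn*, a lysosomal protease of phagocytes, stood at 32.9 and 105 CPM. *marco*, a scavenger receptor of resident macrophages, was lower, at 174 CPM in UI and 120 CPM at 3 dpa, a 1.45-fold difference (1.37 to 1.54) whose direction turned, to a log2 ratio of 0.10, among nuclei with at least 1000 UMIs. In UI 71.7% of *marco* UMIs lay in macrophage-like cluster 11, and at 3 dpa 37.0% lay in cluster 5. In a wider list of phagocyte function 8 of 63 tested members were at or above 1 and 0 at or below −1, with a median of 0.60. *hmox1a*, which degrades haem, stood at 14.7 CPM in UI and 52.4 CPM at 3 dpa, with 46.9% of the latter in cluster 5. Neutrophil markers were scarce, at 90.6 and 191 CPM in sum. The 1 neutrophil marker at or above 1 was *adam8a*, which gave 26 of the 1471 UMIs of the list in UI and 1120 of 3532 at 3 dpa. Of its UMIs 39.3% lay in cluster 3 and 20.4% in cluster 7 at 3 dpa. T or NK lymphocyte markers summed to 119 and 189 CPM and B lymphocyte markers to 61.8 and 119 CPM, with none at or above 1. At 3 dpa 22.4% of the T or NK UMIs lay in cluster 3 and 13.5% in T or NK lymphocyte-like cluster 13. *ebf1b*, also a leading gene of mural-like cluster 14, gave 412 of the 1003 B lymphocyte UMIs in UI and 965 of 2204 at 3 dpa. These 2 sums are therefore not measures of lymphocytes alone.

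Cytokine signalling genes were also more often higher, with 8 of 57 tested members at or above 1, 1 at or below −1 and a median of 0.58 (0.20 to 0.95 over the alternatives). *cxcl12a*, a chemokine that guides cells through its receptor Cxcr4, stood at 1.35 CPM in UI and 16.8 CPM at 3 dpa, 12.4-fold higher (8.04 to 20.1), and 46.9% of its 3 dpa UMIs were in cluster 7. *socs3b*, an inhibitor of JAK/STAT signalling, stood at 7.27 and 32.9 CPM. *nfkbiaa*, an inhibitor of NF-kappaB, stood at 19.7 and 66.6 CPM, and its close relative *nfkbiab* at 140 and 108 CPM, so the pair differed in direction. *csf3a*, the ligand for the granulocyte growth factor receptor, was lower at 3 dpa, at 32.0 CPM in UI and 8.10 CPM at 3 dpa, a 3.96-fold difference (3.29 to 4.78), while *csf3r*, that receptor, stood at 12.6 and 25.4 CPM.

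Genes of the contractile apparatus held less of the 3 dpa library, with a median of −0.36 over 49 tested sarcomere members against 0.20 over all genes, and below 0 under all 13 alternatives. Their sum was 97750 CPM in UI and 72060 CPM at 3 dpa, 1.36-fold lower (1.35 to 1.36). Past 2-fold, 2 members were at or below −1 and 4 at or above 1. The 2 lower ones were myomesins, which link thick filaments at the M line. *myom1a* stood at 201 CPM in UI and 88.8 CPM at 3 dpa, and *myom1b* at 2538 and 1229 CPM. The most abundant members differed less, with *ttn.2* 1.28-fold lower (1.27 to 1.28) and *myh7l*, a cardiac myosin heavy chain, 1.26-fold lower (1.25 to 1.27), at 13290 and 10560 CPM. Another myosin heavy chain gene, *myh7*, went the other way, at 164 CPM (158 to 171) in UI and 386 CPM (377 to 395) at 3 dpa, 2.35-fold higher (2.25 to 2.46), though its log2 ratio was 0.67, inside the 2-fold line, under TMM scaling. The other 3 higher members were *fhod3b*, a formin of the sarcomere, at 201 and 419 CPM, *rbfox1*, a splicing factor, at 28.2 and 68.7 CPM, and *tmod4*, which caps thin filaments, at 78 UMIs in UI and 387 at 3 dpa. For *tmod4* 36.4% of 3 dpa UMIs lay in the erythrocyte-like cluster 6.

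Calcium handling and ion channel genes had a median of −0.28 over 47 tested members, below 0 under all 13 alternatives, and their sum was 46400 CPM in UI and 28590 CPM at 3 dpa. *slc8a1a*, the sodium-calcium exchanger, stood at 19610 CPM (19540 to 19680) in UI and 8796 CPM (8753 to 8839) at 3 dpa, 2.23-fold lower (2.22 to 2.24). *ryr2b*, the calcium release channel, stood at 4753 and 2247 CPM, and *trdn*, the triadin that anchors calsequestrin to it, at 3089 and 1426 CPM. *hrc*, a calcium-binding protein of the same store, was 3.04-fold lower (2.699 to 3.43), at 62.5 and 20.6 CPM. The member at the opposite end was *kcnh6a*, the potassium channel that repolarises the zebrafish heart, at 457 CPM in UI (446 to 467) and 2109 CPM at 3 dpa (2088 to 2130), 4.62-fold higher (4.50 to 4.74). Within the 3 dpa library *kcnh6a* had 58.4% and *slc8a1a* 54.2% of UMIs in the same cluster 3, which held 35.5% of all UMIs. Cluster 3 stayed unnamed. It was led by *ankrd1a*, *kcnh6a*, *pcdh15a* and *magi3b*, and cardiomyocyte markers made up 10.9% of its UMIs. In the named clusters that share ran from 3.16% in endothelial or endocardial-like cluster 1 to 7.65% in T or NK lymphocyte-like cluster 13.

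Genes reported in cardiomyocytes at the border of an injury did not differ together. Of 58 tested members 4 were at or above 1 and 2 at or below −1, against 3.80% and 0.829% of all tested genes. The median was −0.02, which turned positive with at least 1000 UMIs per nucleus or with a lower minimum of UMIs per gene. *ankrd1a*, a stretch-responsive ankyrin repeat protein of muscle, stood at 12.7 CPM (11.07 to 14.6) in UI and 159 CPM (153 to 165) at 3 dpa, 12.5-fold higher (10.8 to 14.4). At 3 dpa 56.1% of its UMIs lay in cluster 3 and 18.9% in cluster 8, and in UI 51.2% lay in cluster 12, which was led by *acta1a*, *cnn1b*, *tagln*, *atf3* and *xirp1*. *flna*, the actin cross-linker filamin A, stood at 134 and 371 CPM and *fhl3a*, a LIM-domain protein, at 36.9 and 117 CPM. *flncb*, a muscle filamin, was lower, at 636 and 263 CPM, as was the myosin gene *myh7bb*, at 2194 and 975 CPM. *nppa*, the atrial natriuretic peptide, was close to level at 669 and 553 CPM.

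Among cardiac transcription factors and co-regulators 2 of 43 tested members were at or above 1, namely *ankrd1a* and *foxp4*, and 2 at or below −1, namely *cited4a* and *mef2aa*. Over all tested genes the shares were 3.80% and 0.829%. The list's median of 0.08 turned negative under TMM scaling, with the median ratio set to 0 and with equal weight for every nucleus. *mef2aa*, a factor that drives muscle genes, stood at 3461 CPM in UI and 1700 CPM at 3 dpa, 2.04-fold lower (2.01 to 2.06). *cited4a* was 2.85-fold lower (2.65 to 3.07), with 50.9% of its 3 dpa UMIs in cluster 3 and 55.3% of its UI UMIs in cluster 0. *foxp4*, a forkhead factor, stood at 111 and 327 CPM. The core factors of heart development given here were lower at 3 dpa, though above −1 on the log2 (CPM + 10) scale. They were named for a low ratio or many UMIs within their lists. Over the cardiac factor list as a whole 24 tested members lay above 0 and 19 below, whereas 75.5% of all tested genes lay above 0. *nkx2.5* stood at 53.3 CPM in UI and 23.3 CPM at 3 dpa, 2.29-fold lower in CPM, and *tbx5a* at 333 and 199 CPM, and the GATA factors *gata4* and *gata6* had log2 ratios of −0.53 and −0.64.

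Lists of energy metabolism had medians close to 0, each under the 0.20 of all genes. Of 73 tested nuclear genes of the respiratory chain 0 were past 2-fold in either direction, with a median of 0.03 that turned negative under 4 of the 13 alternatives. Fatty acid oxidation and TCA cycle genes had a median of −0.02, positive with equal weight for every nucleus, and glycolysis genes a median of 0.02, negative under TMM scaling, with the median ratio set to 0 and with equal weight. Single regulators stood out more. *esrra*, a nuclear receptor that drives mitochondrial genes, stood at 587 CPM (575 to 599) in UI and 197 CPM (191 to 204) at 3 dpa, 2.98-fold lower (2.86 to 3.09). *pparab*, a fatty-acid-sensing receptor, stood at 128 and 302 CPM, with 57.7% of its 3 dpa UMIs in cluster 3. The pair therefore differed in direction. *slc2a3b*, a glucose transporter, stood at 21.8 and 78.3 CPM and *pfkfb3*, which makes the activator of phosphofructokinase, at 11.3 and 40.9 CPM. *hk2*, a hexokinase, stood at 56.7 and 144 CPM, and these 3 were the highest members of the glycolysis list. Another glucose transporter, *slc2a1a*, went the other way, at 31.8 and 13.1 CPM, 2.43-fold lower, as did the lactate transporter *slc16a1b*, at 321 and 158 CPM. For *hk2* the largest share of 3 dpa UMIs, 38.4%, lay in macrophage-like cluster 5. *pkmb*, a pyruvate kinase gene, was lower, at 264 and 121 CPM, and its copy *pkma*, at 589 and 609 CPM, changed sign under 3 alternatives.

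Genes of the fasting, glucocorticoid and insulin response included several of the abundant higher genes. Of 66 tested members 9 were at or above 1 and 2 at or below −1, and the median of 0.22 turned negative under TMM scaling and with the median ratio set to 0. *irs1*, the adaptor of the insulin receptor, stood at 144 CPM (138 to 150) in UI and 508 CPM (497 to 518) at 3 dpa, 3.54-fold higher (3.38 to 3.70). *zbtb16a*, a zinc-finger target of the glucocorticoid receptor, stood at 343 and 1002 CPM. *fkbp5*, a co-chaperone of that receptor and also its target, stood at 599 and 1290 CPM, 2.15-fold higher (2.103 to 2.205). *angptl4*, a fasting-induced inhibitor of lipoprotein lipase, stood at 10.7 and 65.1 CPM. For *irs1*, *zbtb16a*, *fkbp5* and *angptl4* the largest share of 3 dpa UMIs lay in cluster 3, from 41.0% to 56.9%. *fkbp5* came to 0.56 with the least favourable scaling.

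The lowest genes of the comparison were a mixed set of regulators, receptors and mitochondrial proteins. *srrm4*, a splicing regulator known from neurons, stood at 781 CPM (768 to 795) in UI and 164 CPM (158 to 170) at 3 dpa, 4.78-fold lower (4.59 to 4.97). *chrm2a*, the muscarinic receptor through which the vagus slows the heart, stood at 697 and 219 CPM, 3.18-fold lower (3.07 to 3.29). *mtnr1ab*, a melatonin receptor, stood at 184 and 50.1 CPM. UI was the high library in each case. *mfn1b*, a mitofusin that fuses mitochondria, stood at 352 and 106 CPM, and *slc25a33*, a nucleotide carrier of the mitochondrial inner membrane, at 295 and 86.8 CPM. *celf4*, an RNA-binding splicing factor, *mylk4b*, a myosin light chain kinase, and *coro2a*, a coronin that binds actin, were 3.36-fold, 3.28-fold and 3.76-fold lower. *ankrd9* had the largest fold among them, 6.09 (5.07 to 7.36), from a low level of 45.0 CPM in UI to 7.39 CPM at 3 dpa. In the UI library clusters 0 and 4 held 44.0% and 24.0% of all UMIs, and cluster 0 held a larger share of some of these genes, with 52.4% of *srrm4*, 59.9% of *chrm2a* and 59.5% of *celf4*. Clusters 0 and 4 were unnamed, with cardiomyocyte markers at 12.7% and 11.4% of their UMIs. Nuclei rich in cardiomyocyte markers fell in different clusters in the 2 libraries. Cluster 0 held 3283 UI and 215 3 dpa nuclei, and cluster 3 held 90 and 2118, so the shares given for clusters 0 and 3 come from nuclei of mostly 1 library.

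Some immediate-early and stress-induced genes were among the lowest as well. Over the list as a whole 37 tested members lay above 0 and 28 below, whereas 75.5% of all tested genes lay above 0. Of 65 tested members of the AP-1, NR4A and immediate-early list 5 were at or below −1 and 1 at or above 1, although the median was 0.17, near that of all genes, and turned negative under TMM scaling and with the median ratio set to 0. *gadd45ba*, induced by growth arrest and DNA damage, stood at 342 CPM in UI and 92.2 CPM at 3 dpa, 3.71-fold lower (3.51 to 3.92). *nr4a1*, an orphan nuclear receptor induced within minutes of many stimuli, stood at 313 and 88.9 CPM, 3.52-fold lower (3.33 to 3.72). *atf3*, a stress-induced partner of AP-1, stood at 164 and 55.2 CPM, and 17.7% of its UI UMIs lay in cluster 12, which held 4.69% of all UMIs. The opposite gene was *fosl1a*, a Fos family member of AP-1, at 6.65 CPM in UI and 31.2 CPM at 3 dpa, 4.69-fold higher (3.81 to 5.82). *junba*, a Jun family member, was also low in UI, at 9.60 and 27.9 CPM. Heat-shock and unfolded-protein genes had a median of 0.03, negative under the same 2 scalings, with *bag3*, a muscle co-chaperone, at 391 and 198 CPM and *hspa8*, the constitutive Hsp70, at 110 and 288 CPM.

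Genes of the dividing cell were higher at 3 dpa, though their levels were low. Over all 88 mitosis and cytokinesis genes in the table the sum was 267 CPM in UI and 1045 CPM at 3 dpa, 3.91-fold higher (3.78 to 4.04). Of the 59 with enough UMIs to be tested 13 were at or above 1 and 0 at or below −1, with a median of 0.70 (0.52 to 1.91 over the alternatives). Over all 76 DNA replication genes in the table the sum was 272 and 712 CPM, and of 51 tested 3 were at or above 1 and 0 at or below −1, with a median of 0.52. The other 29 mitosis and 25 replication genes had too few UMIs to be tested, and some of those tested reached the minimum through the 3 dpa library, such as *kif20ba* with 52 UMIs in UI and 700 at 3 dpa. The counts and medians therefore lean towards genes that are high at 3 dpa. With 10 CPM added to each value, a gene under 10 CPM in UI cannot reach −1. The 0 at or below −1 is therefore no result for such genes. The added 10 CPM also holds back higher calls of scarce genes. Over the alternatives the number at or above 1 ran from 9 to 53 for mitosis and from 1 to 36 for replication. At the low end *cenpo*, a kinetochore protein, had a log2 ratio of 0.07, which was −0.05 under TMM scaling. *diaph3*, a formin of the cleavage furrow, stood at 30.9 CPM (28.3 to 33.7) in UI and 184 CPM (178 to 190) at 3 dpa, 5.94-fold higher (5.41 to 6.54). *kif20ba*, a kinesin of cytokinesis, stood at 3.201 and 37.8 CPM, 11.8-fold higher (8.90 to 15.96), and *cenpf*, a kinetochore protein, at 4.25 and 32.7 CPM. Both genes were named for a high ratio within their list. *chaf1a*, a subunit of the factor that loads histones on new DNA, stood at 5.30 and 28.6 CPM, and *pola1*, the catalytic subunit of the polymerase that primes DNA synthesis, at 11.6 and 40.7 CPM. The UMIs of these genes were spread over clusters. *kif20ba* had 42.0% in cluster 3, *diaph3* 27.4% there and 16.2% in cluster 7, and *cenpf* 19.7% in erythrocyte-like cluster 6. Summed over the mitosis list, 23.9% of 3 dpa UMIs lay in cluster 3, 15.9% in cluster 7 and 13.8% in cluster 6, against 35.5%, 9.46% and 6.89% of all UMIs.

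Growth factors and receptors known from heart regeneration had 7 of 81 tested members at or above 1 and 0 at or below −1. The shares over all tested genes were 3.80% and 0.829%. The list's median was 0.28 and turned negative under TMM scaling. Beside *mdka*, the 7 included *cyp26b1*, which degrades retinoic acid, at 8.37 CPM in UI and 40.5 CPM at 3 dpa. Another was *igf2b*, an insulin-like growth factor, at 12.1 and 48.6 CPM. *cyp26b1* had 44.1% of its 3 dpa UMIs in cluster 7. *erbb4b*, a neuregulin receptor, was lower, at 416 and 267 CPM, and *vegfab*, a vascular growth factor, was near level at 391.6 and 357 CPM. In the TGF-beta, activin and BMP list 4 of 58 were at or above 1 and 2 at or below −1, with a median of 0.22 that turned negative under TMM scaling and with the median ratio set to 0. *skila*, a feedback repressor of Smad proteins, stood at 85.5 CPM in UI and 311 CPM at 3 dpa, 3.63-fold higher (3.43 to 3.86). *bmp10l* and *bmp10*, BMP ligands of the heart, stood at 40.1 and 11.12 CPM and at 31.3 and 11.17 CPM, so both were lower, the latter at −0.97. *tgfb2*, a TGF-beta ligand, stood at 1458 and 882 CPM, and *tgfbr3*, its co-receptor, at 1120 and 1800 CPM.

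Hypoxia genes were likewise mixed, with 6 of 43 tested at or above 1, 1 at or below −1 and a median of 0.15, negative under TMM scaling and with the median ratio set to 0. *hif1al2*, a HIF-alpha-like gene, stood at 7.76 CPM in UI and 57.0 CPM at 3 dpa, with 29.6% of the latter in erythrocyte-like cluster 6. *hif1aa* was lower, at 94.2 and 57.7 CPM. *epoa*, the erythropoietin gene, which stimulates red-cell production and which fish express in the heart, stood at 406 CPM in UI and 198 CPM at 3 dpa, 2.05-fold lower (1.97 to 2.14). Its log2 ratio lay at the threshold, and ran from −1.52 to −0.95 over the alternatives.

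Ribosomal protein genes were higher at 3 dpa in number and in sum, beside the lower depth of that library. Of 78 tested members 49 were at or above 1 and 0 at or below −1, with a median of 1.06, and their share of all UMIs was 0.787% in UI and 1.74% at 3 dpa. The median was lowest under TMM scaling, at 0.57, and the number at or above 1 ranged from 1 to 72 over the alternatives. *rplp0*, of the ribosomal stalk, stood at 177 CPM in UI and 508 CPM at 3 dpa, and its partner *rplp1* at 202 and 527 CPM. At 3 dpa 21.7% of ribosomal UMIs lay in cluster 2, an unnamed cluster of 2307 shallow nuclei with a median of 636 UMIs, 5 of whose 10 leading genes were ribosomal. Ribosomal proteins took 3.79% of the UMIs of that cluster at 3 dpa and 1.51% in the other 3 dpa nuclei, which was still above the 0.781% of UI nuclei outside it. Without cluster 2, 481 genes were higher and 110 lower, an alternative added after the data had been seen. Mitochondrial share, ribosomal share and depth per nucleus all differed between the libraries in the directions given above, and their part in the differences was not tested.

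**Figure D5:**
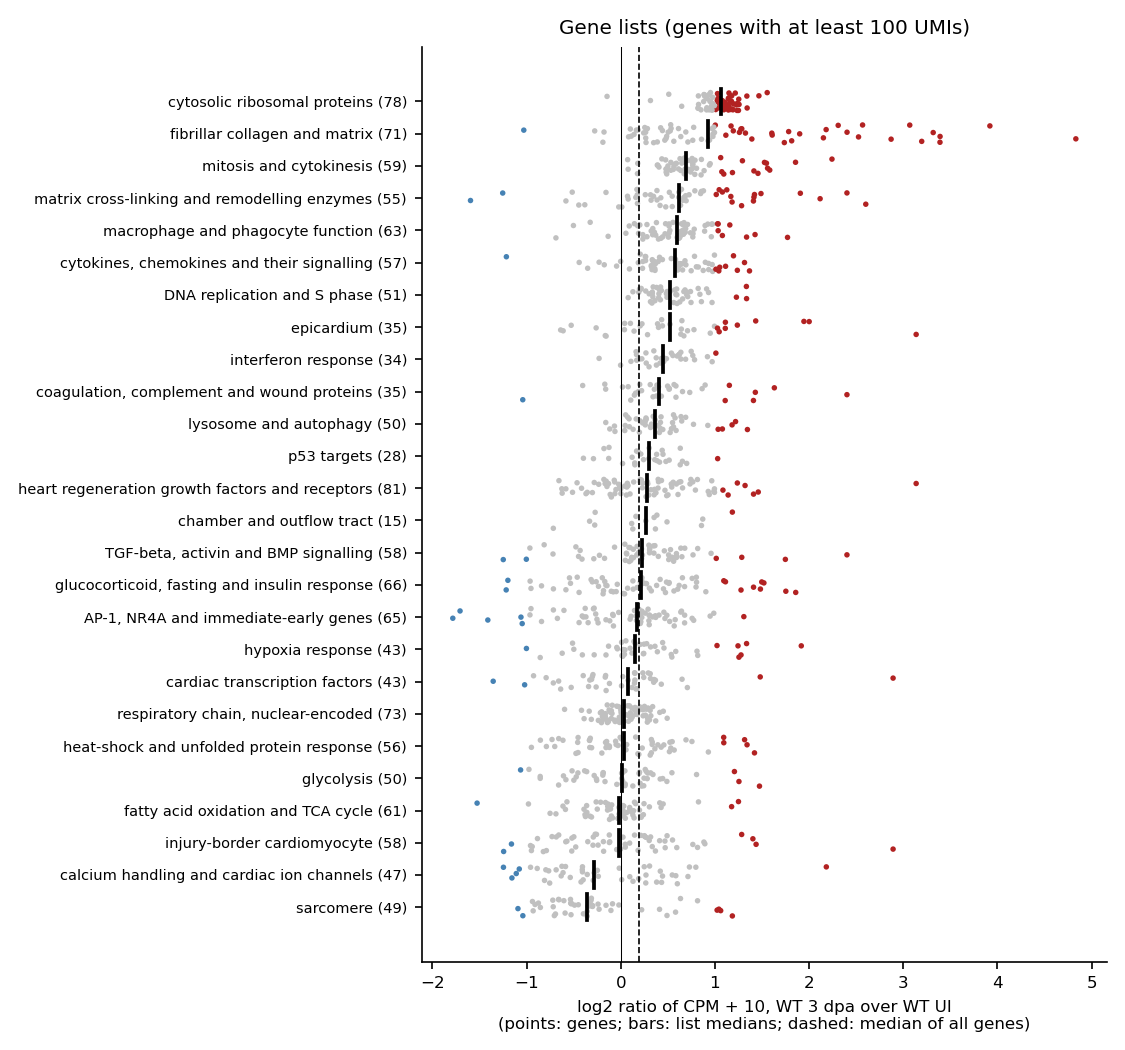
Log2 ratio of CPM + 10, WT 3 dpa over WT UI (horizontal), for the tested genes of 26 gene lists (vertical, number tested in parentheses), with bars for list medians and a dashed line for the median of all genes, 0.20. Ribosomal proteins (1.06), matrix (0.93) and mitosis genes (0.70) have the highest medians and sarcomere genes the lowest (−0.36); the medians of AP-1, heat-shock, hypoxia and glycolysis genes change sign under TMM scaling.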

How the data were processed

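Raw UMI counts per gene and barcode were deposited as 1 matrix per group, made with Cell Ranger 7.0.0 per the file headers. The submitters' processing notes also name GRCz11, R 4.2.0 and Seurat 4.3.0. No step for introns or for cell calling is stated in them. Both WT tables held 25432 gene IDs, and the 517 of 24782 symbols with 2 or more IDs were summed.

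The filter kept barcodes that held 500 or more UMIs, of which no more than 5% were mitochondrial, and UMIs were summed and scaled to CPM (Python 3.11.15, scipy 1.17.1). Ratios used a pseudocount of 10 CPM and genes with at least 100 UMIs over both libraries. Intervals were exact Poisson for a CPM and exact conditional binomial for a fold. PCR and sampling of animals are not covered by them. The calculation was tested on simulated data. TMM factors came from edgeR 4.0.16 in R 4.3.3.

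Doublets were left in the sums. Scrublet's own threshold called 0 barcodes in UI and 1 at 3 dpa, which is too few to have worked, and an alternative left out the 6% with the highest scores. WT nuclei were clustered with Leiden (scanpy 1.11.5, leidenalg 0.10.2, 2000 variable genes, 30 components, 15 neighbours, resolution 1) without batch correction. For each cluster the class with the highest mean log2 excess of its markers over the median cluster was taken. The cluster was named when at least 3 markers of that class were raised, at least 1 was among its 10 leading genes and every other class had fewer there. This rule was settled after the clusters had been seen. Clusters were used only to say where UMIs lay within a library.

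The genes named were the 15 highest and 15 lowest ratios among genes with a symbol, the 3 highest, 3 lowest and 2 most abundant members of each list, the 3 most abundant markers of each cell type and *cited4a*. The members and the 40 lists were chosen with earlier results of these data known. Paralogues with near-identical sequence may share or lose reads in the authors' counting.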

Additional observations from a re-analysis of the deposited data

Results flagged for a closer look

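The libraries labelled *cited4a* mutant gave a 3 dpa over UI ratio of the opposite sign for all 15 of the highest WT genes, and the difference was not tested because each group is 1 library. In the mutant pair the log2 ratio was −3.58 for *col12a1b*, −4.07 for *fn1a*, −2.54 for *col1a1a*, −2.81 for *col12a1a*, −2.94 for *col1a1b*, −1.96 for *col11a1b* and −2.47 for *mdka*. It was −2.68 for *col1a2*, −2.29 for *ankrd1a*, −2.66 for *col5a1*, −1.67 for *ckba*, −2.17 for *alas2*, −2.88 for *slc4a1a*, −2.47 for *adam8a* and −1.76 for *col11a1a*. Among the 15 lowest WT genes, 3 were at or above 1 in the mutant pair, *gadd45ba* at 2.1, *nr4a1* at 1.62 and *mylk4b* at 3.96. Others of the 15 had the same sign as in WT, among them *adamts15a* at −1.39, *chrm2a* at −0.145 and *mtnr1ab* at −0.097. Still others had the opposite sign but lay nearer 0, such as *celf4* at 0.184 and *mfn1b* at 0.103.

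Of the 555 genes at or above 1 in WT, 204 were at or below −1 in the mutant pair, against 4.81% of all tested genes, and 494 (89.0%) lay below 0, where 71.2% of all 14601 tested genes present in the mutant table also lay. Of the 121 genes at or below −1 in WT, 88 (72.7%) lay above 0 in the mutant pair, against 28.7% of all genes. In the mutant pair 25 of the 555 were at or above 1. Of the 121, 14 were at or above 1 there and 4 at or below −1, the latter beside 4.81% of all tested genes. The share of all tested genes at or above 1 in the mutant pair was not computed, so the 25 and the 14 have no background to be read against. The median of all tested genes was 0.20 in the WT pair and −0.17 in the mutant pair. The filter kept 9932 of 35484 barcodes in the mutant UI library and 9140 of 12360 in the mutant 3 dpa library. Mitochondrial genes took 1.99% of the kept UMIs in mutant UI and 1.22% at mutant 3 dpa, the reverse order of the WT pair. The mutant matrices were made with another gene table (27758 against 25432 IDs), and the group of each of the 4 matrices rests on its name. Which library of a pair departs from its label, if any, was not tested.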

How the results depend on the processing

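The numbers of genes past 2-fold depended on the pseudocount and the scaling, and the cause was not tested. With a pseudocount of 1 CPM 2399 genes were higher and 237 lower, under TMM scaling 166 and 585, and with the median ratio set to 0 236 and 388. When every nucleus had equal weight 688 were higher and 182 lower. Under the other 9 alternatives from 481 to 639 genes were higher and from 106 to 138 lower. Of 109 named genes past 2-fold 66 stayed past 2-fold in all 13 alternatives. That 0 of the 109 changed sign was largely set by choosing genes past 2-fold. The ratio of a gene does not depend on the minimum of UMIs per gene. With a minimum of 20 UMIs or none the counts were again 555 and 121. The medians of 14 of the 40 lists changed sign under at least 1 alternative. The alternative without cluster 2 was chosen after seeing the data. No paired analysis was possible because each group is 1 matrix and its barcodes carry no sample number. Leaving out replicates was not possible for the same reason. The design gives 1 library a group, so no value here separates injury from other differences between the libraries.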

Other observations

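Lysosome and autophagy genes were mostly higher in the WT 3 dpa library, with 5 of 50 tested at or above 1, 0 at or below −1 and a median of 0.36. *ulk1b*, a kinase that starts autophagy, stood at 9.85 CPM in UI and 40.4 CPM at 3 dpa, 4.104-fold higher (3.46 to 4.90). The lysosomal proteases *ctsd* and *ctsla* stood at 19.3 and 56.4 CPM and at 17.7 and 54.6 CPM. Both were under the 2-fold line under TMM scaling, and at 3 dpa 32.5% of *ctsd* UMIs lay in macrophage-like cluster 5.

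Interferon genes had a median of 0.45, and 1 of 34 tested was at or above 1, against 3.80% of all tested genes. This was *stat2*, a transducer of interferon signalling, at 76.8 and 165 CPM. Its relative *stat1b* stood at 24.6 and 57.9 CPM, 2.35-fold higher (2.09 to 2.64) and within 2-fold on the CPM + 10 scale. Among p53 targets 1 of 28 was at or above 1, again beside 3.80% of all tested genes. It was the ribosomal-protein-like gene *rps27l*, and the list's median of 0.30 turned negative under TMM scaling. *mdm2*, the ubiquitin ligase that limits p53, stood at 14.6 and 29.95 CPM.

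The remaining marker lists covered hepatocytes, Schwann cells or neurons, epithelium and lymphatic endothelium. Hepatocyte markers summed to 9.67 CPM in UI and 28.3 CPM at 3 dpa, Schwann cell or neuron markers to 104 and 132 CPM, and epithelial markers to 166 and 326 CPM. *tp63*, the epithelial marker with the most UMIs, stood at 151 and 246 CPM, and 55.3% of its 3 dpa UMIs lay in cluster 3. Lymphatic endothelial markers summed to 613 and 556 CPM, although 6 of 7 tested single markers were above 0, as were 75.5% of all tested genes.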
